A study of Mus musculus with 25 samples.

Results

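The chromatin around 10 genes of the neuronal cytoskeleton and the growth cone was followed in mouse astrocytes that had been transduced with the proneural factor Neurog2, the chromatin protein Hmgb2, or both. The genes were Tubb3, Dcx, Map2, Mapt, Stmn2, Gap43, Dpysl3, Nefl, Nefm and Ncam1. A site was counted as belonging to a gene when the nearest start site of any protein-coding transcript (GENCODE M21 models on mm10) was that of the gene and lay within 100 kb. Of 45672 accessible sites (peaks) in the series, 49 met this rule. Sites within 3 kb of a start site were read as promoter peaks (16 of 49, against 15521 in the whole series) and those farther away, up to 100 kb, as distal peaks (33 of 49, against 21657). Peaks are named by gene, by P for promoter or D for distal, and by their order along the chromosome. The gene with the nearest start site need not be the one that a peak acts on.

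Accessibility was measured with ATAC-seq, in which a transposase inserts sequencing adapters into open chromatin, in primary astrocyte cultures from the cerebral cortex of postnatal wild-type C57BL/6J mice. Cells had been grown with bFGF alone (10 ng/ml) or with EGF and bFGF (10 ng/ml each), transduced with retroviruses, and sorted by their fluorescent reporter 48 h later. In each culture, the groups were Neurog2+Hmgb2, Neurog2, Hmgb2 and Control, with 3 libraries per group except Hmgb2 in EGF+bFGF culture, which had 4, so that 25 libraries formed 8 groups. All viruses carried the CAG promoter and a reporter (GFP or dsRED), the Control virus nothing else, and vectors of this kind integrate only in dividing cells. Per the study's methods, the reporter was dsRED for Neurog2 and GFP for Hmgb2, and the study names a GFP virus as the ATAC-seq control. Libraries with and without Neurog2 thus also differ in the reporter by which cells were sorted. Its effect was not tested. The sources used here do not say if replicate libraries stem from different mice or flasks, and p-values therefore reflect only how much these libraries varied, part of which may be technical. Values are regularized log2 (rlog) values, in which 1 unit is a 2-fold difference and differences of peaks with few reads are pulled towards 0. The depth of the libraries is unknown. A small change in every cell and a large change in few cells cannot be told apart in such bulk values.

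These genes build the inner skeleton of a young neuron and the tip that steers its processes. Tubb3 encodes the neuronal β-tubulin from which microtubules are made, Dcx, Map2 and Mapt (tau) encode proteins that bind and stabilize microtubules, and Stmn2 encodes a protein of the growth cone that destabilizes them. Gap43 and Dpysl3 act at the growth cone membrane and on its cytoskeleton, Nefl and Nefm are neurofilament subunits, and Ncam1 is a cell adhesion molecule. In the developing cortex, Neurog2 binds short E-box motifs and starts a program in which genes of this kind are switched on in newborn neurons. Map2, Mapt and Ncam1 are also expressed outside neurons, while Dcx and Stmn2 mark young neurons more strictly.

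The following stretches come from the peaks on which the results turn, with every E-box of the kinds CAGATG, read as CATCTG on the other strand, and CATATG or the related CAGCTG, which read the same on both strands, in capitals. They are GRCm38 (mm10) plus-strand sequence, 5′ to 3′. For Mapt_D1, Ncam1_D1 and Map2_D1, the stretch of at most 300 bases with the most E-boxes was taken, at the coordinates chr11:104271919-104272218, chr9:49536253-49536552 and chr1:66150836-66151135. Dcx_D1 is shown whole (chrX:143906742-143907010), and for Tubb3 the 250 bases before the start site are shown (chr8:123411174-123411423), which lie inside the peak Tubb3_P2.
Mapt_D1: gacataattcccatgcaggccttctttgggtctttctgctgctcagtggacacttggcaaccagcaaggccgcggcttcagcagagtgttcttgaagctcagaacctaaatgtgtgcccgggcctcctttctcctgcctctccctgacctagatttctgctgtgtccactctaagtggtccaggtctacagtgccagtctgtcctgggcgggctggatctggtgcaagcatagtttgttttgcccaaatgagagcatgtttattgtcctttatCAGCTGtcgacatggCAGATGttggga
Ncam1_D1: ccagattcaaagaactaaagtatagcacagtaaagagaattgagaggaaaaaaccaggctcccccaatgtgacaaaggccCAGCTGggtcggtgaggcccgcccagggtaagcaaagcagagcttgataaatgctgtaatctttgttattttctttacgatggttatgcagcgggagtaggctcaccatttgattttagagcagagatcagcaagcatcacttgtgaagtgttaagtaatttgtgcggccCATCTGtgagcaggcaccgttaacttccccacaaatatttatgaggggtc
Dcx_D1: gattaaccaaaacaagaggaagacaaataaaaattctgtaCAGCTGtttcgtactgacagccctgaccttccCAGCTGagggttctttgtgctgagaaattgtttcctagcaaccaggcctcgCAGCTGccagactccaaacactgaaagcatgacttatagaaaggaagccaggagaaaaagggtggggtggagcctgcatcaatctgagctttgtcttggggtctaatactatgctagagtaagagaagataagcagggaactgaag
Map2_D1: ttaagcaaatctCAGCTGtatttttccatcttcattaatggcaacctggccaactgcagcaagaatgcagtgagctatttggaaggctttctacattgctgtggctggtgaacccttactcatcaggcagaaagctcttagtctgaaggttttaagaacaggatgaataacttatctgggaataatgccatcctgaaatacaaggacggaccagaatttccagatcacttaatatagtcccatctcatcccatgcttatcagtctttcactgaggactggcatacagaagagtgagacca
Tubb3 promoter: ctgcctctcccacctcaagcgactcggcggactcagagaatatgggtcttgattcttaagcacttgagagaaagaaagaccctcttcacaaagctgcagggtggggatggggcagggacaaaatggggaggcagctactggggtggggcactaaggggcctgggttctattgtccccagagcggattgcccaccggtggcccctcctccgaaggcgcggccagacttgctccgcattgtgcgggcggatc
Dcx_D1, in an intron of Dcx, held 3 copies of CAGCTG, while the Tubb3 stretch held none of these E-boxes, and nor did the rest of Tubb3_P2. Mapt_D1 and Ncam1_D1 showed 2 each and Map2_D1 1. These stretches were chosen for their E-boxes, so the counts were not set against other peaks. In the central 300 bp of each peak, chosen without regard to motifs, an E-box was found in 18 of 33 distal members (54.5%), against 53.0% of all distal peaks, and in 6 of 16 promoter members (37.5%), against 30.7% of all promoter peaks. Over 32851 RefSeq promoter entries, of which a gene can have more than 1, the 250 bases before the start held one in 28.1%. The Pou octamer ATGCAAAT was in no central window of a member, against 2.07% of all distal and 0.979% of all promoter peaks. A match is a description of the letters and does not show binding.

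Labels were checked first on the peaks over the coding sequences of the transduced genes, which also collect reads from the inserted viral copies. The Hmgb2 coding peak was at 6.15 to 11.0 in the 13 libraries with Hmgb2, against 3.99 to 5.66 in the 12 without, with no overlap. The Neurog2 coding peak was at 10.6 to 16.1 in the 12 libraries with Neurog2, against 6.76 to 12.7 in the 13 without. High values without Neurog2 came from 4 libraries: those labelled bFGF Hmgb2 replicate 1 (12.7), EGF+bFGF Hmgb2 replicate 1 (12.3), and EGF+bFGF Control replicates 1 (10.3) and 2 (10.5). The other 9 libraries without Neurog2 lay between 6.76 and 8.43. The source of this signal was not tested, and results are therefore also given without these 4 libraries. Among the libraries with Neurog2, bFGF Neurog2 replicate 2 had the lowest value (10.6) and also correlated least with its own group (mean r = 0.936, against 0.946 to 0.979 for the others, across all peaks). At promoters, 8 of 10 astrocyte markers had a peak, against 4 of 8 oligodendrocyte lineage, 2 of 8 microglia, 1 of 6 endothelial, 4 of 7 fibroblast and mural, and 6 of 8 neuron markers. The mean level of the neuron markers was 5.30 to 5.45 with Neurog2, against 5.09 to 5.53 without, and that of the astrocyte markers 5.46 to 6.04 with Neurog2, against 5.63 to 6.10 without. Over both cultures, neither list separated libraries with Neurog2 from those without. In bFGF culture, neuron markers were higher in Neurog2 (5.31 to 5.43) and Neurog2+Hmgb2 (5.31 to 5.45) than in Control libraries (5.12 to 5.30). Hmgb2 libraries there spanned 5.09 to 5.53. In EGF+bFGF culture, Neurog2+Hmgb2 libraries lay above Control in neuron markers (5.34 to 5.40, against 5.26 to 5.31). They lay below Control in astrocyte markers (5.79 to 5.91, against 5.92 to 6.10). Elsewhere, Neurog2 groups overlapped Control in these lists. Other lists separated as well. Microglia markers were higher in Neurog2+Hmgb2 in bFGF culture (4.20 to 4.51, against 4.13 to 4.19). They were also higher in both Neurog2 groups in EGF+bFGF culture (4.01 to 4.27, against 3.91 to 3.96). Oligodendrocyte lineage markers were lower in Neurog2+Hmgb2 in EGF+bFGF culture (3.84 to 3.91, against 4.01 to 4.08). The endothelial marker was lower in Neurog2 in bFGF and Neurog2+Hmgb2 in EGF+bFGF culture.

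The genes differed in whether a peak had been called at their promoters. Tubb3, Map2, Mapt, Dpysl3, Nefm and Ncam1 had at least 1 promoter peak, and 9 of these 16 peaks covered a start site. Dcx, Stmn2, Gap43 and Nefl had none, and the nearest peak of any gene lay 26.3 kb from the start of Dcx, 17.7 kb from that of Stmn2, 71.1 kb from that of Gap43 and 27.9 kb from that of Nefl, where it was assigned to the neighbouring Nefm. A promoter with no called peak has no level in these data. Of the 33 distal peaks, 21 lay in introns, 9 in no gene, and 3 in exons of a non-coding gene. Map2 and Ncam1 had the most peaks (10 each), and Dcx and Gap43 a single one each.

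To compare levels between peaks, the rlog value was taken per kb of peak width. Promoter members ranged from 5.19 to 6.77 with a median of 5.64, against 6.00 for all promoter peaks, and 4 of 16 lay above that median. The highest was Map2_P2 over the main Map2 start site (6.77 per kb), followed by Mapt_P1 (6.59 per kb). Their ranges over libraries overlapped, with 6.45 to 7.02 for Map2_P2 and 6.24 to 6.91 for Mapt_P1, and Map2_P2 was the higher of the 2 in 21 of 25 libraries (mean difference 0.18 ± 0.17, SD). Tubb3_P2 averaged 5.76 per kb, near the middle of all peaks (percentile 57.0). Distal members had a median of 5.46 per kb, against 5.52 for all distal peaks, and 15 of 33 lay above it. Nefl_D2 was the highest (6.49 per kb) and Ncam1_D1 the lowest (4.26 per kb, with 1.80% of all peaks lower). This order depends on the width term, as Nefl_D2 is a narrow peak (239 bp, rlog value 4.43). By the rlog value itself, Mapt_D1 was the highest distal member (5.83) and Dcx_D1 the lowest (2.78).

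**Figure D1:**
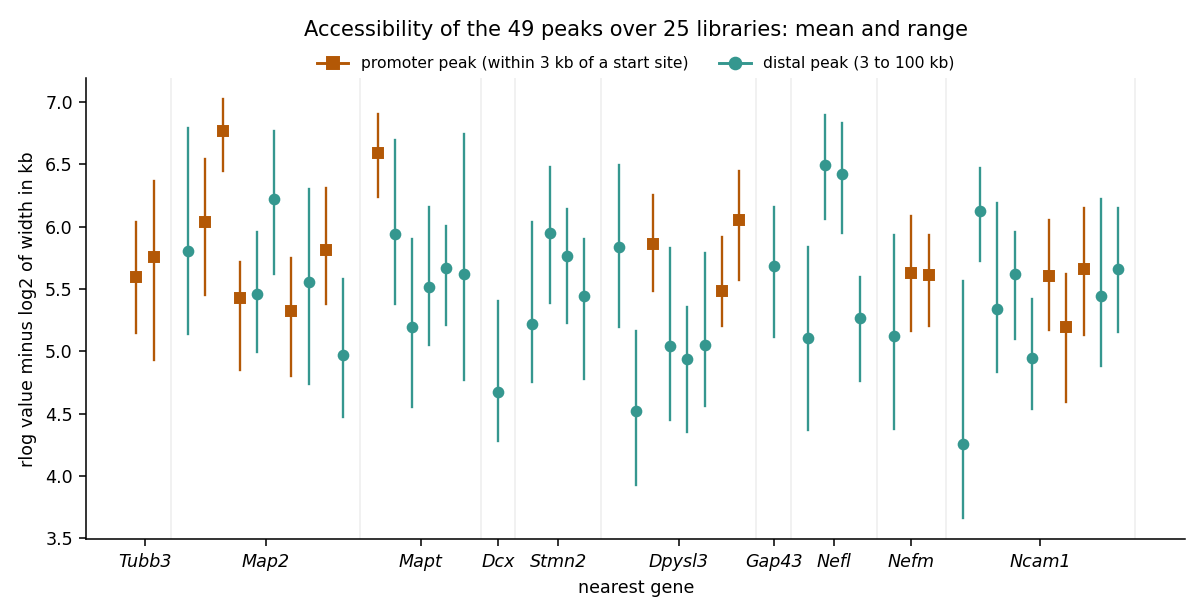
Mean (symbol) and range (line) over 25 libraries of the rlog value minus the log2 of the width in kb, for each of the 49 peaks, grouped by nearest gene. Squares are promoter peaks and circles distal peaks. Dcx, Stmn2, Gap43 and Nefl have circles only, and Map2_P2 has the highest mean (6.77).

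The peaks also differed in how much they varied between libraries. The strong promoter peaks varied least, with a range over the 25 libraries of 0.57 for Map2_P2 and 0.67 for Mapt_P1 on the log2 scale. Mapt_D5 varied most (1.97), followed by Ncam1_D1 (1.91) and Map2_D1 (1.65). In Mapt_D5 and Ncam1_D1 the highest value came from bFGF Neurog2 replicate 2, the library that stood apart, with 5.51 in Mapt_D5 and 4.81 in Ncam1_D1. Tubb3_P2 ranged over 1.44, the widest of the 16 promoter peaks.

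The question of whether Neurog2, with or without Hmgb2, opens the loci of neuronal genes was addressed first within each culture. Of the 49 peaks, 1 passed the test in any of the 8 comparisons within a culture: Tubb3_P2, the peak over the Tubb3 start site (chr8:123411116-123412082), in Neurog2+Hmgb2 against Control in EGF+bFGF culture. It was at 5.95, 5.89 and 6.02 in Neurog2+Hmgb2 libraries, against 5.54, 4.88 and 5.59 in Control libraries. The 3 Neurog2+Hmgb2 libraries lay above the 3 Control libraries, of which replicate 2 was far below the other two. The difference was 0.62 ± 0.16 (SE; limma, adjusted p = 0.0218), where 0.78% of all promoter peaks and 3.97% of all peaks were called higher and 1.07% of all peaks lower. It was no longer called without EGF+bFGF Control replicate 2 (0.39, adjusted p = 0.226), without Neurog2+Hmgb2 replicate 1 (0.62, adjusted p = 0.0534) or replicate 3 (0.58, adjusted p = 0.116), or without the 4 libraries with Neurog2 signal (0.36, adjusted p = 0.615), which leave a single Control library in this culture.

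Neurog2 alone gave similar values at this peak in EGF+bFGF culture. Tubb3_P2 was at 6.02, 5.67 and 5.91 in Neurog2 libraries there, all above the Control libraries, with a difference of 0.53 ± 0.16 that missed the threshold (adjusted p = 0.0533). It was 0.30 without Control replicate 2 (adjusted p = 0.415), 0.66 without Control replicate 3 (adjusted p = 0.0361), and 0.28 without the 4 libraries with Neurog2 signal (adjusted p = 0.735). Mapt_D1, in an intron of Mapt, was at 6.47, 6.58 and 6.28 in Neurog2 libraries, against 5.77, 5.67 and 5.67 in Control libraries. The groups did not overlap, and the difference of 0.74 ± 0.23 missed the threshold as well (adjusted p = 0.054), with 0.77 without the 4 libraries with Neurog2 signal (adjusted p = 0.431). Map2_D1, at -24.2 kb from the Map2 start site, lay in the other direction, at 4.53, 5.09 and 4.55 in Neurog2 libraries, against 5.98, 5.55 and 5.15 in Control libraries (difference -0.83 ± 0.26, adjusted p = 0.0584). Map2_D1 was called without Control replicate 3 (-1.04, adjusted p = 0.0412) or Neurog2 replicate 2 (-1.02, adjusted p = 0.0485), and was at -0.43 without the 4 libraries with Neurog2 signal (adjusted p = 0.791). For Neurog2 against Control in this culture, 3.94% of all peaks were called higher and 1.07% lower, and none of the 49. Groups did not overlap at 2 of 16 promoter members (higher, against 8.81% of all promoter peaks higher and 6.69% lower), and at 3 distal members higher and 7 lower of 33 (against 14.1% and 14.5% of all distal peaks). For Neurog2+Hmgb2 against Control in this culture, groups did not overlap at 3 promoter members higher and 1 lower (against 6.36% and 8.45% of all promoter peaks), and at 4 distal members higher and 4 lower (against 14.7% and 11.6%).

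In bFGF culture, no member was called in either comparison with Control. Tubb3_P2 was at 6.03, 6.12 and 6.32 in Neurog2+Hmgb2 libraries, at 5.78, 5.53 and 5.87 in Neurog2 libraries, and at 5.78, 5.73 and 5.91 in Control libraries. The 3 Neurog2+Hmgb2 libraries were the highest of all 25, while the Neurog2 libraries overlapped the Control libraries. The difference from Control was 0.35 ± 0.16 for Neurog2+Hmgb2 (adjusted p = 0.317) and -0.08 ± 0.16 for Neurog2 (adjusted p = 0.884). Over all peaks, 2.59% were called higher and 0.464% lower for Neurog2+Hmgb2, and 0.898% higher and 0.353% lower for Neurog2. Groups did not overlap at 4 promoter members higher and 1 lower for Neurog2+Hmgb2 (against 4.85% and 6.58% of all promoter peaks), and at 0 higher and 1 lower for Neurog2 (against 7.92% and 4.33%). Among distal members, Ncam1_D1 and Nefl_D2 were higher and Mapt_D2 and Ncam1_D7 lower without overlap for Neurog2+Hmgb2 (against 11.5% and 8.5% of all distal peaks), and Dpysl3_D1 and Nefl_D2 higher and Mapt_D2 and Ncam1_D7 lower for Neurog2 (against 7.54% and 7.31%). The distal peak with the largest Neurog2 difference in this culture was Ncam1_D1, in an intron of Ncam1, at 3.46, 4.81 and 4.07 in Neurog2 libraries, against 3.25, 3.66 and 3.37 in Control libraries. The groups overlapped, the highest value came from the library that stood apart, and the difference of 0.68 ± 0.24 was not called (adjusted p = 0.150). Without that library, Neurog2 replicate 2, it was 0.34 (adjusted p = 0.567), and without Neurog2 replicate 1 it was 1.01 (adjusted p = 0.0179).

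**Figure D2:**
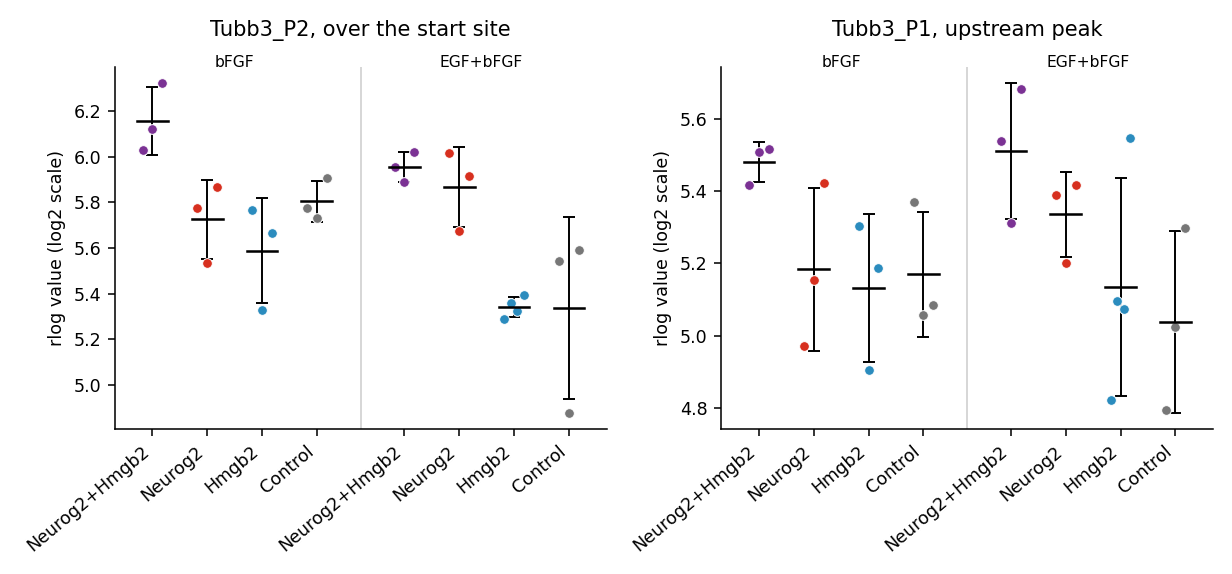
rlog values of the 2 Tubb3 promoter peaks in each library (points), by culture and transduction, with the group mean and SD (bars). For Tubb3_P2, the Neurog2+Hmgb2 libraries in bFGF culture (6.03 to 6.32) lie above all Control and Neurog2 libraries of that culture, and both Neurog2 groups in EGF+bFGF culture lie above the Hmgb2 and Control libraries.

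The 4 group pairs that differ in Neurog2 were then averaged, so that 12 libraries with Neurog2 stood against 13 without. Of the 49 peaks, 6 rose and 4 fell, none by more than 1 on the log2 scale. At promoters, 3 of 16 rose and 1 fell, where 5.13% of all promoter peaks were called higher and 3.47% lower. Among distal peaks, 3 of 33 rose and 3 fell, where 13.8% and 13.9% of all distal peaks did, so the distal shares were close to or below the background. The median difference was 0.14 at promoter members, against 0.04 over all promoter peaks, and -0.10 at distal members, against -0.04 over all distal peaks. Without the 4 libraries with Neurog2 signal, 1 member rose (Tubb3_P2) and 2 fell (Map2_D5 and intronic Mapt_D2, the second by 0.37, adjusted p = 0.0312), where 9.07% of all peaks were called higher and 5.85% lower.

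The largest rise was at Tubb3. Tubb3_P2 ranged from 5.53 to 6.32 with a median of 5.93 in libraries with Neurog2, against 4.88 to 5.91 with a median of 5.54 in those without. Of the 12 libraries with Neurog2, 7 lay above every library without it, and 11 above their median. The difference was 0.41 ± 0.08 (adjusted p = 0.000329), and it was kept when each of the 25 libraries was left out in turn and without the 4 libraries with Neurog2 signal (0.36 ± 0.08, adjusted p = 0.00296). Tubb3_P1, at -1.27 kb from the start site and in the untranslated region of the neighbouring gene Mc1r, ranged from 4.97 to 5.68 (median 5.42) with Neurog2, against 4.80 to 5.55 (median 5.08) without. The ranges overlapped widely, and the difference was 0.26 ± 0.09 (adjusted p = 0.0287). It was lost without EGF+bFGF Neurog2+Hmgb2 replicate 3, EGF+bFGF Neurog2 replicate 1, EGF+bFGF Control replicate 1, bFGF Neurog2 replicate 3, bFGF Hmgb2 replicate 2 or bFGF Control replicate 2 (0.23 to 0.25, adjusted p = 0.0505 to 0.0655), and without the 4 libraries with Neurog2 signal (0.19, adjusted p = 0.191).

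Among the genes of microtubule-binding proteins, directions differed between and within loci. Mapt_D1 ranged from 5.43 to 6.58 (median 6.08) with Neurog2, against 5.27 to 6.20 (median 5.67) without, a difference of 0.34 ± 0.11 (adjusted p = 0.0276). Dcx_D1, the only peak of Dcx, 26.2 kb from its nearest start site to its centre, ranged from 2.64 to 3.51 (median 2.87) with Neurog2, against 2.38 to 3.05 (median 2.62) without. All 12 libraries with Neurog2 lay above the median of those without, and 2 lay above their highest. The difference was 0.25 ± 0.09 (adjusted p = 0.0423). By group, Dcx_D1 was at 2.96, 2.87 and 2.99 in Neurog2+Hmgb2 libraries of EGF+bFGF culture, against 2.62, 2.61, 2.64 and 2.59 in Hmgb2 libraries of that culture, which did not overlap. In the other pairs that differ in Neurog2, the groups overlapped at this peak. The share of all peaks without overlap in this pair was not counted. Both calls were fragile: that of Mapt_D1 was lost without any 1 of 6 libraries, all from bFGF culture (Neurog2+Hmgb2 replicate 2, Neurog2 replicate 1, Hmgb2 replicates 1 and 2, and Control replicates 1 and 2; 0.28 to 0.32, adjusted p = 0.0524 to 0.0679), and that of Dcx_D1 without any 1 of 15 libraries from all 8 groups (0.19 to 0.26, adjusted p = 0.0508 to 0.103). Without the 4 libraries with Neurog2 signal neither was called (0.34, adjusted p = 0.100, for Mapt_D1, and 0.19, adjusted p = 0.265, for Dcx_D1).

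The peaks of Map2 that passed the test all fell, and the peak over its main start site was not among them. Map2_D1 ranged from 4.41 to 5.37 (median 4.67) with Neurog2, against 4.33 to 5.98 (median 5.20) without. In EGF+bFGF culture it was at 4.74, 5.08 and 4.41 in Neurog2+Hmgb2 libraries, against 5.98, 5.55 and 5.15 in Control libraries, which had the highest mean of the 8 groups. In 11 of 12 libraries with Neurog2 it lay below the median of the others, and the difference was -0.46 ± 0.13 (adjusted p = 0.0094). Map2_D5, in an intron 8.37 kb downstream of an internal start site, ranged from 2.60 to 3.21 (median 2.95) with Neurog2, against 2.72 to 3.71 (median 3.23) without (-0.30 ± 0.09, adjusted p = 0.0211). All 12 libraries with Neurog2 lay below the median of those without. Intronic Map2_D4 (-0.33 ± 0.12, adjusted p = 0.0424) and Map2_P3, 2.57 kb downstream of the main start site (-0.26 ± 0.09, adjusted p = 0.0261), were also called. Without the 4 libraries with Neurog2 signal, Map2_D5 was still called (-0.37, adjusted p = 0.0209), whereas Map2_D1 (-0.34, adjusted p = 0.136), Map2_D4 (-0.39, adjusted p = 0.0672) and Map2_P3 (-0.19, adjusted p = 0.247) were not. Leaving out 1 library ended the call of Map2_D1 in no case, that of Map2_D5 without bFGF Control replicate 2 (-0.24, adjusted p = 0.0538), and that of Map2_P3 without EGF+bFGF Neurog2 replicate 3 (-0.21, adjusted p = 0.063) or bFGF Control replicate 3 (-0.24, adjusted p = 0.0505). The call of Map2_D4 was lost without any 1 of 15 libraries (-0.34 to -0.27, adjusted p = 0.0512 to 0.0981). Map2_P2, over the main start site, ranged from 6.42 to 6.96 with Neurog2, against 6.39 to 6.96 without, a difference of -0.01 ± 0.07 (adjusted p = 0.970).

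For the growth cone and adhesion genes, 1 peak each of Dpysl3 and Ncam1 was called. Dpysl3_P1, over a start site of a shorter transcript, ranged from 6.40 to 6.90 (median 6.57) with Neurog2, against 6.14 to 6.58 (median 6.47) without, a difference of 0.21 ± 0.07 (adjusted p = 0.0232). Ncam1_D1 ranged from 3.04 to 4.81 (median 3.66) with Neurog2, against 2.90 to 3.68 (median 3.33) without, a difference of 0.34 ± 0.12 (adjusted p = 0.0318). In both, most libraries with Neurog2 lay above the median of the others (10 of 12 for Dpysl3_P1 and 9 of 12 for Ncam1_D1). Dpysl3_P1 was not called without bFGF Neurog2+Hmgb2 replicate 3, bFGF Hmgb2 replicate 1 or EGF+bFGF Control replicate 1 (0.18 to 0.19, adjusted p = 0.0507 to 0.0551). Ncam1_D1 was not called without bFGF Neurog2+Hmgb2 replicate 3, Neurog2 replicate 2, Hmgb2 replicate 2 or Control replicate 1, nor without EGF+bFGF Neurog2+Hmgb2 replicate 3, Neurog2 replicate 1 or Hmgb2 replicate 3 (0.26 to 0.33, adjusted p = 0.0522 to 0.0736). Without the 4 libraries with Neurog2 signal, neither was called (0.17, adjusted p = 0.137, for Dpysl3_P1 and 0.36, adjusted p = 0.105, for Ncam1_D1).

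The other genes had no call. Dpysl3_D2, the distal peak of Dpysl3 with the smallest p, differed by -0.14 ± 0.09 (adjusted p = 0.278). The single peak of Gap43, Gap43_D1, ranged from 3.48 to 4.42 (median 4.29) with Neurog2, against 3.44 to 4.48 (median 3.88) without (0.24 ± 0.11, adjusted p = 0.112). Stmn2_D1, at -88.8 kb from the Stmn2 start site, ranged from 2.99 to 4.26 with Neurog2, against 2.98 to 3.70 without (0.26 ± 0.12, adjusted p = 0.123). At the neurofilament genes, the distal peaks with the smallest p had negative differences, which were not called: -0.22 ± 0.13 for Nefl_D1 (adjusted p = 0.219) and -0.26 ± 0.13 for Nefm_D1 (adjusted p = 0.152). The promoter peak Nefm_P2 ranged from 5.18 to 5.80 with Neurog2, against 5.08 to 5.78 without (0.07 ± 0.08, adjusted p = 0.579). Mapt_P1 (0.04 ± 0.07, adjusted p = 0.724) was not called. Nor was Ncam1_P1 (0.15 ± 0.09, adjusted p = 0.288), the promoter peak of Ncam1 with the highest rlog value, in an intron 1.60 kb from the start site.

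**Figure D3:**
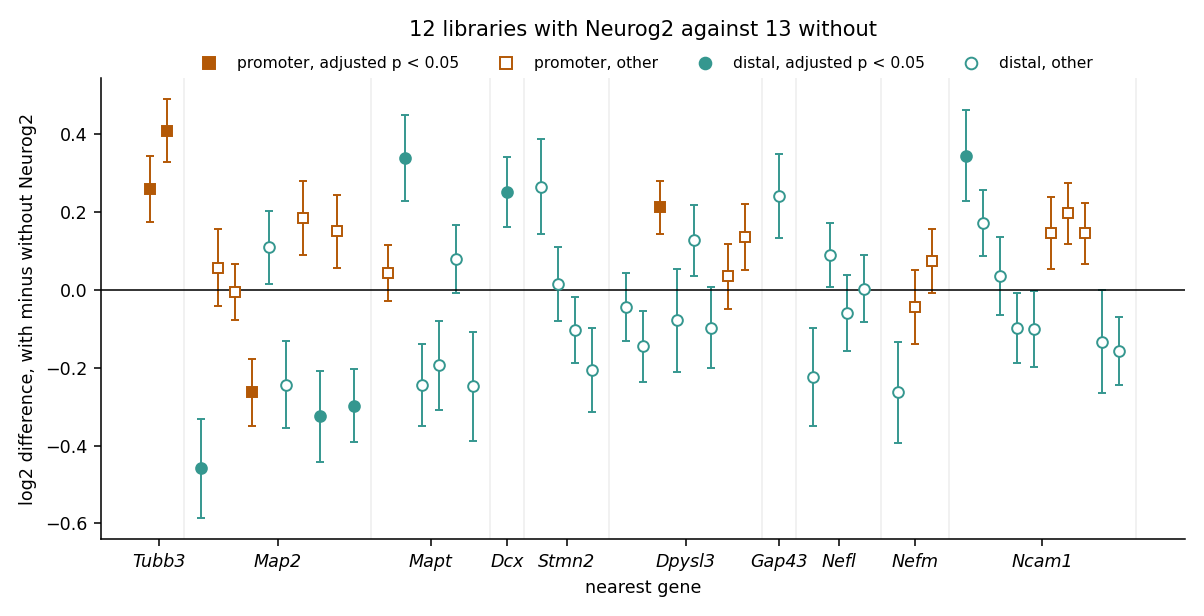
Difference in rlog value between the 12 libraries with Neurog2 and the 13 without (symbol) with its SE (bar), for each of the 49 peaks by nearest gene. Filled symbols passed an adjusted p of 0.05: 6 lie above 0, with Tubb3_P2 the highest (0.41), and the 4 below 0 all belong to Map2.

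Of the 39 peaks without a call, 20 had a positive difference. With the called peaks included, 13 of 16 promoter members were positive, against 62.2% of all promoter peaks. Among distal members, 13 of 33 were, against 41.9% of all distal peaks. At promoters, the positive peaks without a call included all 3 of Ncam1 (0.15 to 0.20), both of Dpysl3 (0.03 to 0.14) and 3 of 4 of Map2. Among distal peaks without a call, 1 of 2 was positive at Map2, 1 of 5 at Dpysl3, 1 of 4 at Mapt, 2 of 6 at Ncam1, 2 of 4 at Stmn2 and 2 of 4 at Nefl.

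The average over 4 pairs can hide differences between cultures, so each pair was also read alone. The pairs share no library. Of the 49 peaks, 7 were positive in all 4 pairs, 8 negative in all 4, and 34 had both signs. The same count was not made over all peaks, so these numbers are not read as a trait of these genes. Among the called peaks, Tubb3_P1, Dcx_D1, Mapt_D1 and Ncam1_D1 were positive in all 4 and the 4 Map2 peaks negative in all 4, while Tubb3_P2 and Dpysl3_P1 were positive in 3, the exception being Neurog2 against Control in bFGF culture. These peaks had been called on the mean of the same 4 pairs. Agreement of their signs with the call is therefore largely built in and is no further evidence. The smallest and largest of the 4 values were 0.15 and 0.32 for Dcx_D1, and -0.43 and -0.16 for Map2_D5, the narrowest spreads among these peaks. Stmn2_D1, Map2_D2 and Dpysl3_P3 were positive in all 4 without being called. Between Neurog2 and Control, Mapt_D1 differed by 0.16 in bFGF culture, against 0.74 in EGF+bFGF culture, and Ncam1_D1 by 0.68 in bFGF culture (0.34 without bFGF Neurog2 replicate 2), against 0.02 in EGF+bFGF culture. The tests of these differences between cultures were not called (adjusted p = 0.828 for Mapt_D1 and 0.802 for Ncam1_D1), nor was that for Tubb3_P2 (-0.61 ± 0.23, adjusted p = 0.737). No interaction was called at any of the 45672 peaks, although 2863 had an unadjusted p under 0.05 for the Neurog2 effect by culture.

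Fits by culture or by Hmgb2 were added after the data had been seen. Mapt_D2 in bFGF culture was at 4.56, 4.94 and 4.91 in Neurog2+Hmgb2 and 4.62, 4.85 and 4.30 in Neurog2 libraries, against 5.21, 5.65 and 5.00 in Hmgb2 and 4.99, 5.30 and 5.31 in Control libraries, so all 6 with Neurog2 lay below all 6 without. The share of all peaks apart in this way was not counted. In EGF+bFGF culture, Mapt_D2 did not fall with Neurog2 (0.06, adjusted p = 0.837). Within bFGF culture, Ncam1_D1 was called higher (0.59, adjusted p = 0.0288) and Mapt_D2 lower (-0.55, adjusted p = 0.0244), where 4.66% and 1.86% of all peaks were. Within EGF+bFGF culture, Tubb3_P2 (0.57, adjusted p = 0.000489), Mapt_D1 (0.56, adjusted p = 0.0121), Gap43_D1 (0.46, adjusted p = 0.0362) and Dpysl3_P1 (0.34, adjusted p = 0.0133) were called higher and Map2_D1 lower (-0.68, adjusted p = 0.00847), where 8.75% and 6.54% of all peaks were. Without the 4 libraries with Neurog2 signal, Mapt_D2 in bFGF culture and Tubb3_P2 in EGF+bFGF culture (0.44, adjusted p = 0.0299) were still called, and the others were not.

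Between libraries with Hmgb2, 4 of the 49 members were called, all at promoter peaks and including both peaks of Tubb3. The share of all promoter peaks called in this fit was not counted, so this is not read as a trait of the promoter members. Tubb3_P2 (0.59, adjusted p = 0.000422), Ncam1_P2 (0.41, adjusted p = 0.0102), Tubb3_P1 (0.36, adjusted p = 0.0399) and Dpysl3_P1 (0.28, adjusted p = 0.0409) were higher in Neurog2+Hmgb2 than in Hmgb2 libraries over both cultures, where 8.39% of all peaks were called higher and 5.42% lower. Tubb3_P2 and Ncam1_P2 were also called without the 4 libraries with Neurog2 signal (0.63, adjusted p = 0.000341, and 0.38, adjusted p = 0.0385). In EGF+bFGF culture, Ncam1_P2, 0.619 kb inside Ncam1, was at 5.37, 5.06 and 5.20 in Neurog2+Hmgb2 libraries, against 4.53, 4.36, 4.77 and 4.78 in Hmgb2 libraries (0.60 ± 0.15, adjusted p = 0.0115), where 5.25% of all peaks were called higher and 2.41% lower. At Ncam1_P2, Control libraries of this culture were at 4.89, 4.94 and 5.39 and overlapped the Neurog2+Hmgb2 libraries. Tubb3_P2 was the other member called in Neurog2+Hmgb2 against Hmgb2 there (0.61 ± 0.15, adjusted p = 0.0108). Between libraries without Hmgb2, Neurog2 against Control gave no call among the 49, where 5.99% of all peaks were higher and 3.08% lower. Without the 4 libraries with Neurog2 signal, Tubb3_P2 differed by only 0.10 in that comparison, with a single Control library left in EGF+bFGF culture. Whether the Neurog2 effect differed with Hmgb2 was tested by an interaction, which was not called for Tubb3_P2 (0.37 ± 0.16, adjusted p = 0.648) or Ncam1_P2 (0.44 ± 0.16, adjusted p = 0.470). No peak of the series was called in that test, 3230 had an unadjusted p under 0.05, and limma called 191 with a replicate block and 251 with library weights.

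**Figure D4:**
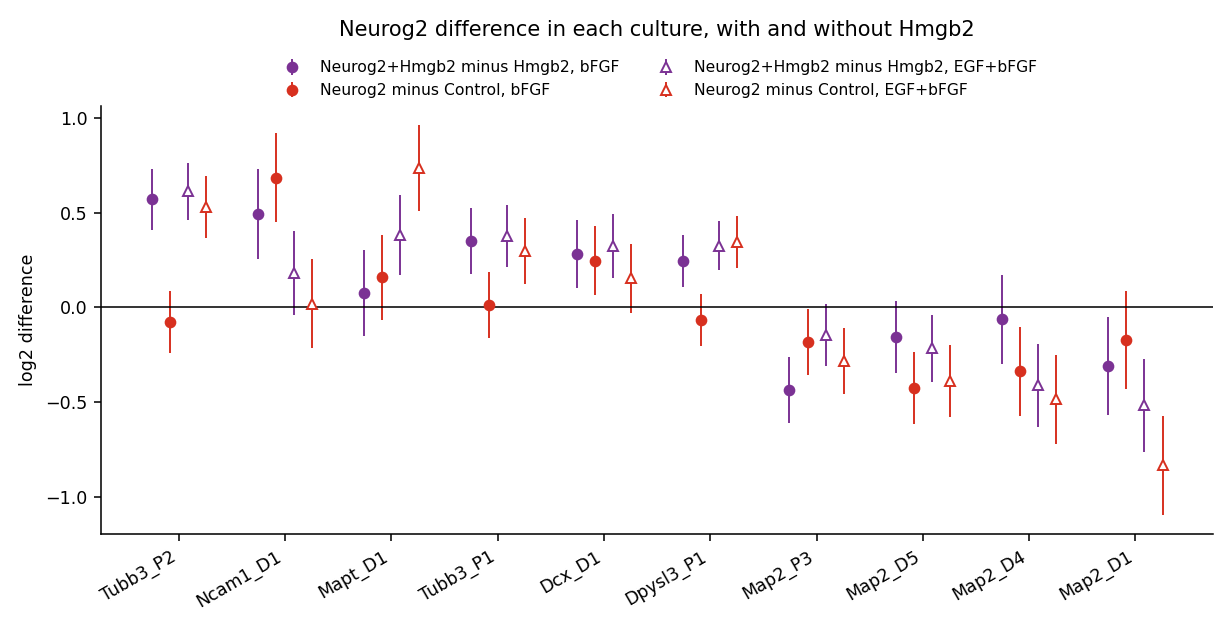
Neurog2 difference (log2 scale, symbol) with its SE (bar) in 4 group pairs that share no library, for the 10 peaks called on the mean of these pairs. Filled circles are bFGF culture, open triangles EGF+bFGF culture, purple Neurog2+Hmgb2 minus Hmgb2 and red Neurog2 minus Control. For Tubb3_P2, Neurog2 minus Control in bFGF culture (-0.08) lies apart from Neurog2 minus Control in EGF+bFGF culture (0.53).

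**Figure D5:**
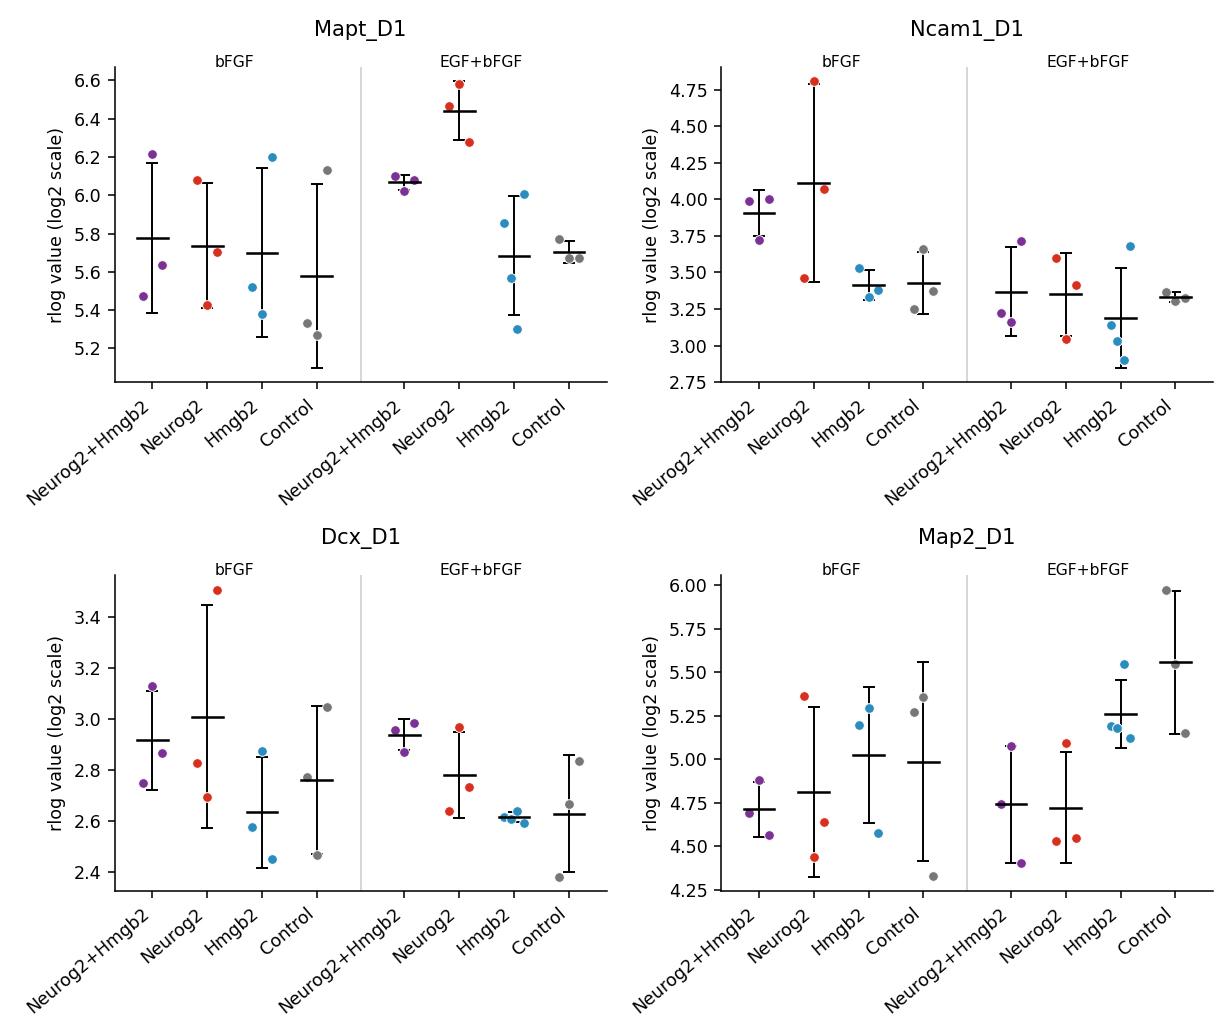
rlog values of 4 distal peaks in each library (points), by culture and transduction, with the group mean and SD (bars). Mapt_D1 is highest in the Neurog2 libraries of EGF+bFGF culture (6.28 to 6.58). By group mean, Ncam1_D1 is highest in the Neurog2 and Neurog2+Hmgb2 groups of bFGF culture, and Map2_D1 in the Control group of EGF+bFGF culture. In Ncam1_D1 and Map2_D1, single libraries of other groups overlap these groups.

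What Hmgb2 adds to Neurog2 was read from Neurog2+Hmgb2 against Neurog2. No member was called in either culture. In bFGF culture, groups did not overlap at 4 of 16 promoter members, which were higher with Hmgb2, where 4.15% of all promoter peaks were higher and 10.3% lower in this way. Among distal members, Dpysl3_D5 was higher and Dpysl3_D1 and Dpysl3_D2 were lower without overlap, where 5.31% and 2.9% of all distal peaks were. The promoter members were Tubb3_P2 (0.43 ± 0.16, adjusted p = 0.618), Ncam1_P1 (0.39 ± 0.19, adjusted p = 0.696), Nefm_P1 (0.36, adjusted p = 0.740) and Nefm_P2 (0.33 ± 0.17, adjusted p = 0.716). Nefm_P2, over the Nefm start site, was at 5.72, 5.80 and 5.80 in Neurog2+Hmgb2 libraries, against 5.31, 5.34 and 5.69 in Neurog2 libraries. In EGF+bFGF culture, no promoter member was without overlap (against 4.35% of all promoter peaks higher and 10% lower), and among distal members 3 were higher and 2 lower, where this held for 8.81% and 5.15% of all distal peaks. limma called 0 of all peaks in bFGF culture (3251 at an unadjusted p under 0.05, 9 with library weights) and 7 in EGF+bFGF culture (0.0153% higher).

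Hmgb2 alone changed no member past the threshold. In EGF+bFGF culture, Hmgb2 libraries did not overlap Control libraries at Mapt_P1 and Ncam1_P2, which were lower (2 of 16 promoter members, where 7.46% of all promoter peaks were, with 0 higher, against 1.73%), and at Stmn2_D3, which was higher (1 of 33 distal members, where 5.86% of all distal peaks were, with 0 lower, against 2.73%). Mapt_P1 was at 6.36, 6.04, 6.33 and 6.33 in Hmgb2 libraries, against 6.64, 6.57 and 6.52 in Control libraries (-0.31, adjusted p = 0.533). In bFGF culture, the single member without overlap was Ncam1_P3 (-0.18, adjusted p = 1.00), where 4.19% of all promoter peaks were lower in this way and 2.8% higher, against 4.04% of all distal peaks higher and 4.01% lower. Over both cultures and with or without Neurog2, the largest value was at Dpysl3_D1, which ranged from 4.61 to 5.47 with Hmgb2, against 5.05 to 5.91 without, and the difference was -0.31 ± 0.09 (adjusted p = 0.274). Over all peaks, 15 were called in the comparison with against without Hmgb2 (0.0328% higher) and 1 in each culture for Hmgb2 against Control (0.00219% higher).

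The culture was compared over all transductions, 12 libraries in bFGF against 13 in EGF+bFGF. No member was called, and of all peaks 0.342% were higher and 0.177% lower. The members nearest to the threshold were Ncam1_D1 (0.41 ± 0.12, adjusted p = 0.0693), Map2_D5 (-0.32 ± 0.09, adjusted p = 0.0709) and Map2_P5 (-0.31 ± 0.09, adjusted p = 0.0854). Tubb3_P2 differed by 0.19 ± 0.08 (adjusted p = 0.187). The values of the 4 libraries with Neurog2 signal bear on this comparison too, and without them no member was called either.

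Other genes of the same roles were read at their promoters from a list of 51 tubulins, stathmins, microtubule-binding proteins, neurofilament genes, growth cone and actin regulators, and neural adhesion molecules, 42 of which had a promoter peak. The only call was Marcks, which encodes a membrane-bound regulator of actin (chr10:37140045-37141579). It was higher in Neurog2 than in Control libraries in EGF+bFGF culture (0.71 ± 0.16, adjusted p = 0.00825), where 0.326% of 12268 genes were called higher, and over all libraries with against without Neurog2 (0.49 ± 0.08, adjusted p = 3.34e-05), where 4.34% were. Of the 42 genes, 34 (81.0%) had a positive difference with against without Neurog2, against 66.2% of all genes, and the median was 0.07, against 0.04 over all genes.

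Genes whose promoter peak followed the mean of the 6 peaks that rose most closely over the 8 group means were Lgi4 (Pearson's r = 0.991), Slc35a5 (0.979), Rcor2 (0.975), Strip2 (0.968) and Gpam (0.968), of 12262 genes. The 6 peaks had been chosen because they were called higher with Neurog2, so their mean is high in Neurog2 groups by choice. With 8 points that share their libraries, these are descriptions and carry no test.

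Motif content was compared with the Neurog2 difference as a last description. Distal members with CAGATG or CATATG in the central 300 bp had a median difference of -0.07 (10 peaks), against 0.06 over all distal peaks with such a motif, and distal members with neither had -0.10 (23 peaks), against -0.08 over all. Among all distal peaks, 58.8% of those with such a motif were positive, and among the members 4 of 10. The 6 peaks that rose were mixed in this respect: Tubb3_P2 held no E-box in its whole length, Dcx_D1 only CAGCTG, and Mapt_D1, Ncam1_D1, Tubb3_P1 and Dpysl3_P1 at least 1 CAGATG.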

How the data were processed

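ATAC-seq was run on sorted cells, one library per sample. Per the study's methods and the labels, the authors checked reads with FastQC, trimmed them with cutadapt, mapped them to mm10 with Bowtie2 and called peaks in each sample with Genrich in its ATAC mode, which also removed mitochondrial reads and PCR duplicates. The authors merged peaks over samples, counted reads and deposited regularized log2 values made with DESeq2 (1.36.0) for 45672 peaks. Counts were not analysed here, so depth is unknown and no count model was run. The 10 genes and all lists were chosen with earlier results of these data known.

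Peaks were assigned to the nearest protein-coding start site of GENCODE M21 by the distance from the peak edge. limma (3.58.1, R 4.3.3) was fitted to all 25 libraries and all peaks with 8 group means and an intensity trend, with Benjamini-Hochberg adjustment over all 45672 peaks. Peaks with an adjusted p under 0.05 were called. The code was tested on simulated data. Given in full are every called peak and, per gene, the highest promoter peak and the distal peak with the smallest p. Sequences are from RefSeq and its genome assembly GRCm38. No pairing by replicate number was used. Within a culture, deviations from the group mean correlated at -0.474 to 0.397 (median 0.0857) between same-numbered libraries. Other numbers gave -0.435 to 0.371 (median -0.0702). Across cultures, the medians were 0.0380 and -0.0300. Whether libraries of the same number share a batch was not tested. Alternatives changed the scaling, the samples fitted, the library weights, the block, the filters and the peak assignment, or left out libraries.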

Additional observations from a re-analysis of the deposited data

Results flagged for a closer look

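In EGF+bFGF Hmgb2, the single group with 4 libraries, 4 of 49 peaks had a library far from the other 3 (a gap above Dixon's 95% limit). Chance alone flags about 1 in 20. Mapt_P1 was at 6.04 in replicate 2, below the others. Mapt_D4 was at 4.94 and Ncam1_D3 at 3.70 in replicate 1, both below the others, and this library also had the Neurog2 coding signal of 12.3. Map2_D1 was at 5.55 in replicate 3, above the others.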

How the results depend on the processing

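No called value changed sign under the alternatives run. Over the named peaks, 824 values kept their side of the threshold, 21 passed it newly and 100 no longer passed it. Of the counts of called members, 593 stayed within 1.5 times and 53 moved, as follows. For Neurog2 against Control in EGF+bFGF culture (0 higher, 0 lower), a fit of the groups compared alone gave 1 higher and 1 lower, the replicate block 2 and 1, library weights 2 and 1, leaving out peaks of at most 250 bp 2 higher, and median centring 1 lower. For Neurog2+Hmgb2 against Control in EGF+bFGF culture (1 higher, 0 lower), quantile normalization gave 2 higher, median centring 2 lower, the groups alone 1 lower, the replicate block 1 lower, library weights 2 higher and 1 lower, and leaving out the libraries with Neurog2 signal 0 higher. Library weights gave 1 higher and 1 lower for Neurog2 against Control in bFGF culture and for the culture, and 10 higher and 8 lower with against without Neurog2. For that comparison (6 higher, 4 lower), a filter on low values gave 2 lower, EGF+bFGF alone 1 lower, bFGF alone 1 higher and 1 lower, libraries without Hmgb2 0 and 0, libraries with Hmgb2 0 lower, and leaving out the libraries with Neurog2 signal 1 higher and 2 lower. Leaving out each library in turn gave 3 to 7 higher and 2 to 6 lower there, 0 to 1 in each direction for both comparisons with Control in EGF+bFGF culture, 0 to 1 higher for Neurog2 in bFGF culture, and 0 to 2 higher and 0 to 1 lower for the culture. In the wider list, quantile normalization and the replicate block each gave 1 gene higher for Neurog2+Hmgb2 against Control in EGF+bFGF culture, and the replicate block 4 with against without Neurog2. Same-numbered libraries deviated together slightly more than others in the median, with ranges that overlapped widely. It is not known if the numbers pair libraries, so the replicate block is not read as a paired analysis. Over all peaks, library weights called 4597 against 2289 for Neurog2 and 3873 against 2303 for Neurog2+Hmgb2 in EGF+bFGF culture, 2331 against 571 for Neurog2 in bFGF culture, 1196 against 237 for the culture, and 698 against 15 for Hmgb2. Other assignments of peaks to genes gave 13 promoter and 28 distal members (gene start only), 12 and 37 (1 kb) or 16 and 27 (50 kb). The causes were not tested. Depth is unknown, so the weakest peaks, such as Dcx_D1, are read with the least certainty.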
